A study of Mus musculus with 9 samples.

Results

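The collagen genes were examined across the 3 layers of the outer mouse eye that laser dissection separated: the choroid (CH), the retinal pigment epithelium (RPE) and the photoreceptors (PR). A probe was taken as a collagen probe when it was no control spot and its gene name in the scanner files was exactly Col, digits, a, digits. This rule gave 40 genes of the 31829 gene names on the array, measured by 59 probes on 68 spots. The family held 11 fibrillar genes, 6 basement membrane genes (all of type IV), 9 FACIT genes and 14 others. There were 9 arrays, 3 for each layer, each with amplified RNA of a dissected layer labelled in Cy5 (red). All 9 shared the same Cy3 (green) reference, RNA of whole mouse RPE and choroid, and no dye swap was made. Every sample came from a female C57BL/6 mouse, 6 months of age give or take 2 weeks per the labels (the study's methods give a younger age and the substrain C57BL/6JOlaHsd), and no mouse carried a treatment or an engineered allele. The layers were cut from frozen sections, thicker for PR than for RPE and CH, with an eye for each sample, and the study names carry-over between neighbouring layers as a limit of the dissection. A value is a log2 ratio of tissue over reference, so 0 means the level of the RPE and choroid mixture and not the absence of RNA. Ratios of different genes are not set against each other here.

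Collagens are proteins of 3 chains wound around each other, and each chain is built from repeats of glycine followed by other amino acids. Fibrillar collagens (types I, II, III, V, XI, XXIV and XXVII) form the banded fibres of connective tissue. FACIT collagens sit on the surface of such fibres, and type IV collagen forms the sheet of basement membranes. Types VIII and X form short-chain networks, and types XV and XVIII carry sugar chains in basement membrane zones. Bruch's membrane, the layered matrix between the RPE and the choroid, holds type IV collagen in its basement membranes and fibrillar collagens in its inner layers.

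The sequences of the collagen probes, 60 bases each and given in the direction of the transcript, held a recognisable pattern in part. In 4 of the 59 collagen probes (6.78%), codons of the form GGN, which code for glycine, stood in step every 9 bases at least 4 times in a row. Over all 39429 probes this pattern was met in 39, or 0.0989%. It is the coding sequence of the collagen helix itself, and the glycine codons of the run are in capitals.
Col15a1 A_55_P2060386: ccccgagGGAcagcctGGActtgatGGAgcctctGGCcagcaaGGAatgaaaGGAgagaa
Col16a1 A_55_P2056735: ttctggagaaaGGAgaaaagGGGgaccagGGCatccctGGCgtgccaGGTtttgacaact
Col25a1 A_55_P2107711: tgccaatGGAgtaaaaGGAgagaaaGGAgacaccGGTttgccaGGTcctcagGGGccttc
Col14a1 A_55_P2159522: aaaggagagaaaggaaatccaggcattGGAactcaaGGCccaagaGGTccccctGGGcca
They lie in mm9 at chr4:47283786-47283845, plus strand (Col15a1), chr4:129756457-129756516, plus strand (Col16a1), chr3:130270497-130270556, plus strand (Col25a1) and chr15:55347733-55347792, plus strand (Col14a1). Another 9 collagen probes (15.3%) held AATAAA, the usual signal for the addition of the poly(A) tail at the end of a transcript, against 12.6% of all probes. Stretches of 30 bases of 5 of these show the signal in capitals.
Col16a1 A_55_P2056739: gactctactaggAATAAAtggccaaagctt
Col6a1 A_55_P2128153: gctatctctgctAATAAAggtttccatttt
Col11a1 A_55_P2100375: atgaattttatcAATAAAtcaagtcttgtc
Col10a1 A_55_P2089520: gtattacgaagcAATAAAatgacatgaata
Col18a1 A_55_P2059352: aaagaggcaccaAATAAAaatgacatttta
They lie in mm9 at chr4:129776333-129776392, plus strand (Col16a1), chr10:76171538-76171597, minus strand (Col6a1), chr3:113923185-113923244, plus strand (Col11a1), chr10:34116831-34116890, plus strand (Col10a1) and chr10:76514926-76514985, minus strand (Col18a1). None of the 4 helix probes was well above background in Cy5 on all 9 arrays, as flagged by the scanner software, 3 of them were so on 1 or 2 arrays only, and that of Col14a1 on 8. Of the 9 probes with the signal, 6 were well above background on all 9 arrays, and the lowest was so on 6. The 46 probes with neither pattern ranged from 0 to 9 arrays, with 29 on all 9, and the part of the sequence in the readout was not tested. Col16a1 had both types. Its helix probe differed between RPE and CH by -0.17 ± 0.10 on the log2 scale (SE; limma adjusted p = 0.289), while its probes with the signal gave -1.93 and -2.05 (adjusted p = 4.05e-05 and 0.000165). Col4a4, Col4a6, Col8a2, Col10a1, Col14a1, Col20a1 and Col23a1 likewise had a dimmer probe that differed from the brightest in call. The brightest probe over the 9 arrays is reported for each gene unless another is named.

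A gene counted as different between 2 layers if any probe of it showed more than a 2.5-fold change together with an adjusted p under 0.01 in limma, fitted on all 39429 probes and all 9 arrays. Between RPE and CH, 12 of the 40 collagen genes (30%) were called higher in CH, where the background over all gene names was 1.81%. The count was 9 with Cy5 alone and 10 with the values of the authors' table. None was called higher in RPE, where the background was 0.217%. At an unadjusted limma p below 0.05, 7 of the 40 reported probes were higher in RPE and 19 were lower. The share of all probes at that threshold was not counted, so these counts have no background. Between RPE and PR, 19 genes (47.5%) were called higher in RPE against a background of 11.3%, and 3 (7.5%) were called higher in PR against 5.66%. Between CH and PR, 23 genes (57.5%) were called higher in CH against 13.2%, and 2 (5%) higher in PR against 6.84%. The shares higher in PR were thus near their background. The comparisons share arrays, so they are not independent of each other. In the plot of all 40 genes, 13 genes were called in no comparison.

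**Figure D1:**
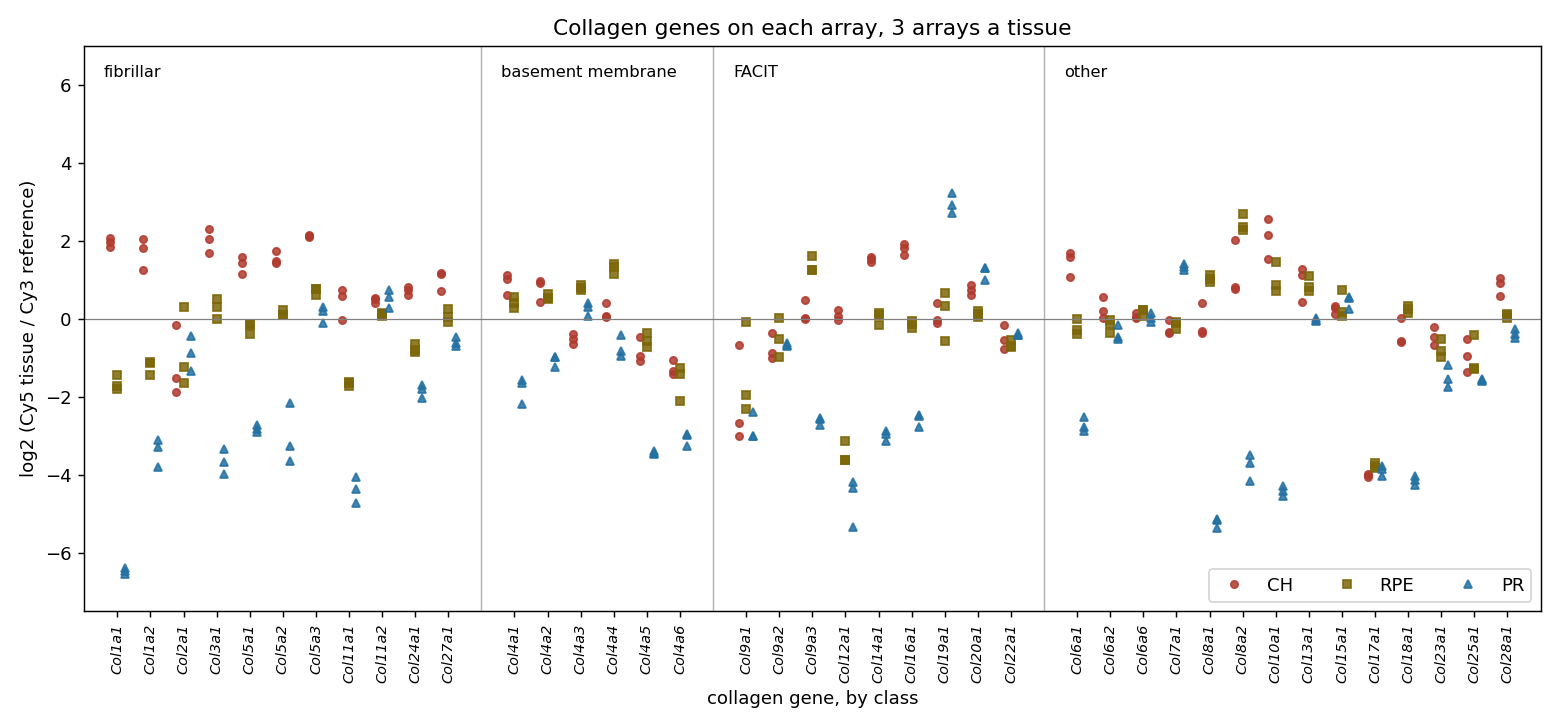
The log2 ratio of tissue over reference (vertical axis) is plotted for the reported probe of each of the 40 collagen genes, grouped by class along the horizontal axis, with 1 point for each array (circles CH, squares RPE, triangles PR). Most fibrillar genes step down from CH through RPE to PR, type IV and VIII genes have RPE near or above CH, and Col19a1 and Col7a1 are highest in PR.

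By class, 8 of 11 fibrillar genes were called higher in CH than in RPE, with a median log2 difference of -1.495 for RPE minus CH (all probes: 0.04). Of the 9 FACIT genes 3 were called higher in CH, with a median of -0.16. None of the 6 type IV genes was called between RPE and CH, with a median of 0.03. Of the 14 other genes, Col6a1 was called higher in CH. Against PR, 6 fibrillar, 5 type IV, 3 FACIT and 5 other genes were called higher in RPE. The medians of RPE minus PR were 2.17, 1.83, 1.165 and 0.66 in that order, with -0.005 over all probes. For CH minus PR the counts were 9, 4, 4 and 6, and the medians 4.21, 1.82, 0.69 and 1.004, with -0.054 over all probes. Placing probes that were not well above background in a layer at their lower bound changed the fibrillar median of CH minus PR to 3.66 and the medians of the other group to 0.42 (RPE minus PR) and 0.51 (CH minus PR), and turned that of RPE minus CH from 0.03 to -0.015. The direction of the FACIT medians depended on the scaling: with scale normalization between arrays they were -0.03 (RPE minus PR) and -0.06 (CH minus PR), and with the slide as a block CH minus PR was -0.24. The FACIT median of RPE minus CH was 0.002 without CH 3, and the type IV median of RPE minus CH was -0.27 with median centring and -0.007 without RPE 3.

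The arrays and the cell types in them set the frame for these values. Of all probes 62.1% to 71.2% were well above background in Cy5 on 8 arrays and 91.7% on RPE 2. On that array 58 of the 59 collagen probes carried the flag, against 39 to 45 on the others. None of the collagen probes was saturated. RPE markers were highest in RPE, with array medians of 2.13 to 2.64 against 0.35 to 1.21 in CH, where CH 3 had the highest, and -3.27 to -3.08 in PR. Of the 6 RPE markers, Best1 was well above background on 2 arrays only. Rod markers were highest in PR (3.26 to 3.75) and were all 6 called there against both other layers. Fibroblast markers had medians of 0.57 to 0.90 in CH, -1.41 to -1.06 in RPE and -4.44 to -3.77 in PR, and 5 of 7 (Dcn, Lum, Pdgfra, Fbln1 and Mfap5) were called higher in CH than in RPE. Endothelial markers were called in none of 6 genes between RPE and CH, with medians of 0.57 to 1.33 in CH, 0.935 to 1.105 in RPE and -1.99 to -1.75 in PR. Smooth muscle and pericyte markers ran from 1.07 to 1.79 in CH and from 0.305 to 0.87 in RPE, and 1 of 5 (Tagln) was called. In bulk samples of this kind, fewer cells of a type and less RNA in each cell cannot be told apart.

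**Figure D2:**
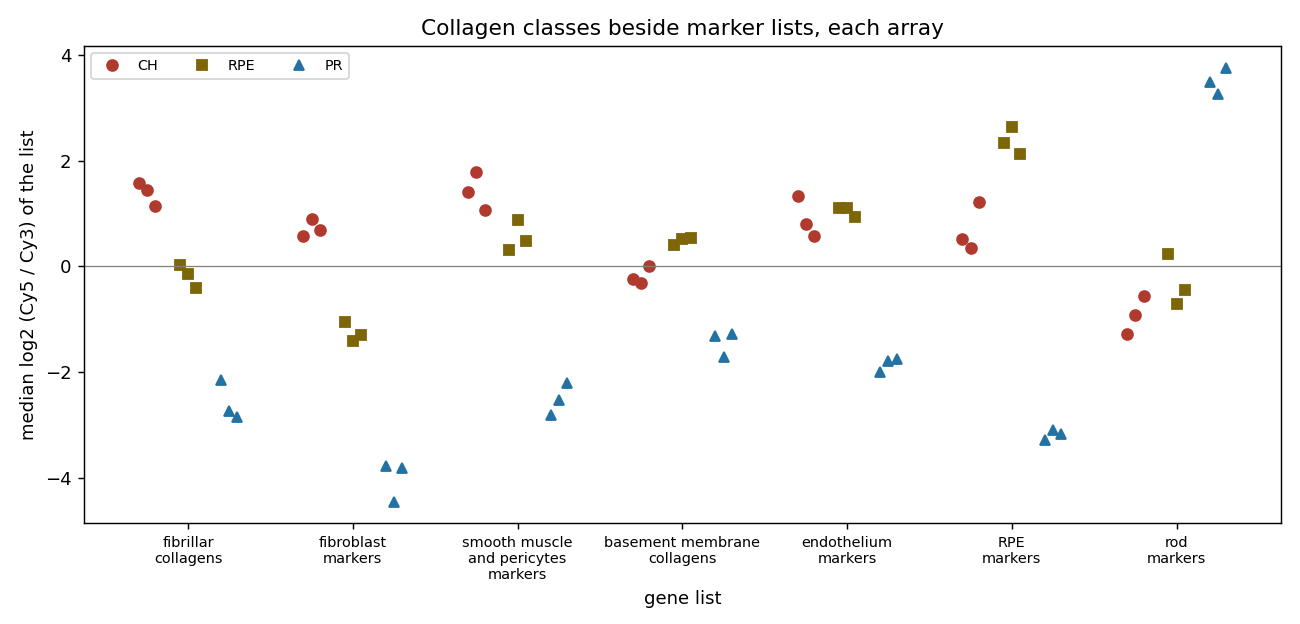
The median log2 ratio of tissue over reference (vertical axis) is plotted on each array for 2 collagen classes and 5 marker lists (horizontal axis; circles CH, squares RPE, triangles PR). Fibrillar collagens and fibroblast markers both run from CH down to PR, while endothelial markers overlap between CH and RPE.

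Type I collagen, the main fibre of most connective tissue, stepped down from CH through RPE to PR. Col1a1, which codes for its alpha1 chain, had log2 ratios of 2.08, 1.84 and 1.96 in CH, of -1.81, -1.44 and -1.73 in RPE, and of -6.41, -6.56 and -6.49 in PR (chr11:94813115-94813174 in mm9). The layers did not overlap, and the level in CH was 12.3-fold that in RPE (log2 RPE minus CH -3.62 ± 0.12 SE, adjusted p = 3.09e-06). RPE was 28.3-fold above PR (adjusted p = 4.87e-09). The call for RPE against CH held with a smaller step of -2.03 when Cy5 was used alone and of -2.08 in the authors' table, and RPE minus PR was 2.89 with scale normalization. Its partner chain in the type I molecule, Col1a2, read 1.80, 2.05 and 1.24 in CH, -1.15, -1.11 and -1.45 in RPE and -3.12, -3.81 and -3.30 in PR. The order was the same with smaller steps, -2.94 ± 0.23 for RPE minus CH (adjusted p = 1e-04) and 2.17 ± 0.23 for RPE minus PR (adjusted p = 2.79e-05). For Col1a2 RPE minus CH was -2.003 with Cy5 alone and -2.01 in the authors' table, still called, while RPE minus PR was 1.10 with scale normalization, below the fold threshold.

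Col3a1, the chain of type III collagen of vessel walls and soft tissue, read 2.04, 2.29 and 1.68 in CH, 0.29, 0.50 and -0.01 in RPE and -3.35, -3.98 and -3.68 in PR. CH exceeded RPE 3.36-fold (adjusted p = 0.000509), and RPE exceeded PR 15.2-fold (adjusted p = 2.1e-07). The call between CH and RPE was lost with Cy5 alone (-1.65, adjusted p = 0.0117) and in the authors' table (-1.62, adjusted p = 0.0143). The type V chains, which are incorporated into type I fibrils and limit their width, were all 3 called higher in CH than in RPE. Col5a1 had 1.58, 1.44 and 1.14 in CH, -0.17, -0.14 and -0.40 in RPE and -2.90, -2.73 and -2.83 in PR. Col5a3 had 2.15, 2.13 and 2.10 in CH, 0.60, 0.75 and 0.78 in RPE and 0.31, -0.12 and 0.19 in PR. Here RPE stood closer to PR than to CH, and RPE minus PR was 0.58 ± 0.12, below the fold threshold. With Cy5 alone its RPE minus CH was -1.52 and lost its call (adjusted p = 0.0112). Col5a2 had 1.74, 1.48 and 1.43 in CH, 0.10, 0.10 and 0.22 in RPE and -2.15, -3.27 and -3.65 in PR. Its RPE minus CH of -1.41 ± 0.31 only just passed (adjusted p = 0.00995) and lost its call in 13 of 24 alternatives. In PR its probe was not well above background on any array, so CH was at least 12.6-fold and RPE at least 4.81-fold higher than PR.

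Col11a1, the type XI chain that nucleates fibrils, read 0.75, 0.58 and -0.03 in CH, -1.65, -1.64 and -1.72 in RPE and -4.07, -4.36 and -4.73 in PR. CH was 4.29-fold above RPE (adjusted p = 0.000251), and 2 of 3 PR arrays were well above background. Its partner Col11a2 did not follow. Col11a2 lay between 0.40 and 0.54 in CH, 0.06 and 0.14 in RPE and 0.28 and 0.74 in PR, and was called in no comparison. Col24a1, a fibrillar chain, read 0.80, 0.75 and 0.62 in CH, -0.86, -0.65 and -0.80 in RPE and -1.79, -1.70 and -2.04 in PR (RPE minus CH -1.50 ± 0.11, adjusted p = 8.7e-05). It was well above background on 1 of 3 RPE arrays and on no PR array, which puts CH at least 4.53-fold above PR. Of the other fibrillar genes, Col27a1 was called higher in CH than in PR only (1.61 ± 0.15) and Col2a1 was not called.

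Among the FACIT genes Col12a1, Col14a1 and Col16a1 were called higher in CH than in RPE. Col12a1, whose product binds type I fibrils, read 0.22, -0.04 and 0.07 in CH, -3.14, -3.62 and -3.61 in RPE and -4.19, -5.35 and -4.33 in PR. The step from CH to RPE was 11.6-fold (adjusted p = 9.23e-05), whereas RPE and PR differed by 2.24-fold, under the fold threshold (adjusted p = 0.00521). Col5a3 and Col24a1 were likewise called higher in CH than in RPE without a call between RPE and PR. Col14a1, likewise a fibril-associated chain, read 1.52, 1.57 and 1.45 in CH, 0.15, 0.10 and -0.16 in RPE and -2.88, -2.96 and -3.15 in PR, with steps of 2.8-fold and 8.16-fold. At its dimmer probe, well above background on 8 arrays, neither step was called. CH was 1.83-fold above RPE there (adjusted p = 0.0189) and RPE 2.05-fold above PR (adjusted p = 0.00295). Col16a1 read 1.92, 1.82 and 1.64 in CH, -0.23, -0.05 and -0.14 in RPE and -2.48, -2.77 and -2.51 in PR. Col6a1, a chain of the beaded filaments of type VI, was the remaining gene called higher in CH. It read 1.68, 1.57 and 1.08 in CH, -0.39, -0.002 and -0.29 in RPE and -2.78, -2.52 and -2.89 in PR (RPE minus CH -1.67 ± 0.175, adjusted p = 0.000307). Its partner Col6a2 read 0.56, 0.19 and 0.03 in CH, -0.15, -0.37 and -0.03 in RPE and -0.53, -0.16 and -0.46 in PR, and was not called. For all 12 genes the CH arrays lay above the RPE arrays without overlap. In both slides that held the 2 layers each kept its direction and a fold above 2.5, with 1 array a layer in slide 2. The 12 genes were called on these same arrays, so this describes their values and is no separate check. Fibroblast markers had the same order of layers (the plot of collagen classes beside marker lists), and their part in these differences was not tested.

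With the reported processing, the genes on the opposite side of the comparison stopped short of the fold threshold. Col4a3, Col4a4, Col8a1 and Col9a3 were higher in RPE than in CH at an adjusted p below 0.01, by 2.49-fold, 2.18-fold, 2.18-fold and 2.32-fold. Col8a2 was 2.35-fold higher (adjusted p = 0.0197). The CH and RPE arrays of these 5 genes did not overlap, as was so for 26 of the 40 reported probes in either direction. The share of all probes without overlap was not counted. With a fold threshold of 2 all 5 were called. With 1 array left out, 4 were called without CH 3 (Col4a3, Col8a1, Col8a2 and Col9a3). There were 2 without RPE 2 (Col4a3 and Col4a4) and 1 without CH 1 (Col4a4). The backgrounds over all genes under these settings were not counted. The authors' own normalized table gave calls for 3 of them (Col4a3, Col4a4 and Col9a3). It listed no value on the 3 RPE arrays for the reported Col8a2 probe. The Col4a4 calls in that table and with an array left out came from a dimmer probe and not from the reported one. With the reported processing, the second Col4a4 probe was 2.49-fold higher in RPE (adjusted p = 0.00235), also short of the fold threshold. The study lists Col4a4 among its mouse RPE signature genes at the same fold and p thresholds, so its published call differs from that given here. By the study's sqRT-PCR, Col4a4 was also highest in RPE. Col9a3, a chain of the FACIT type IX, read 0.02, -0.02 and 0.48 in CH, 1.25, 1.61 and 1.26 in RPE and -2.54, -2.58 and -2.73 in PR.

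**Figure D3:**
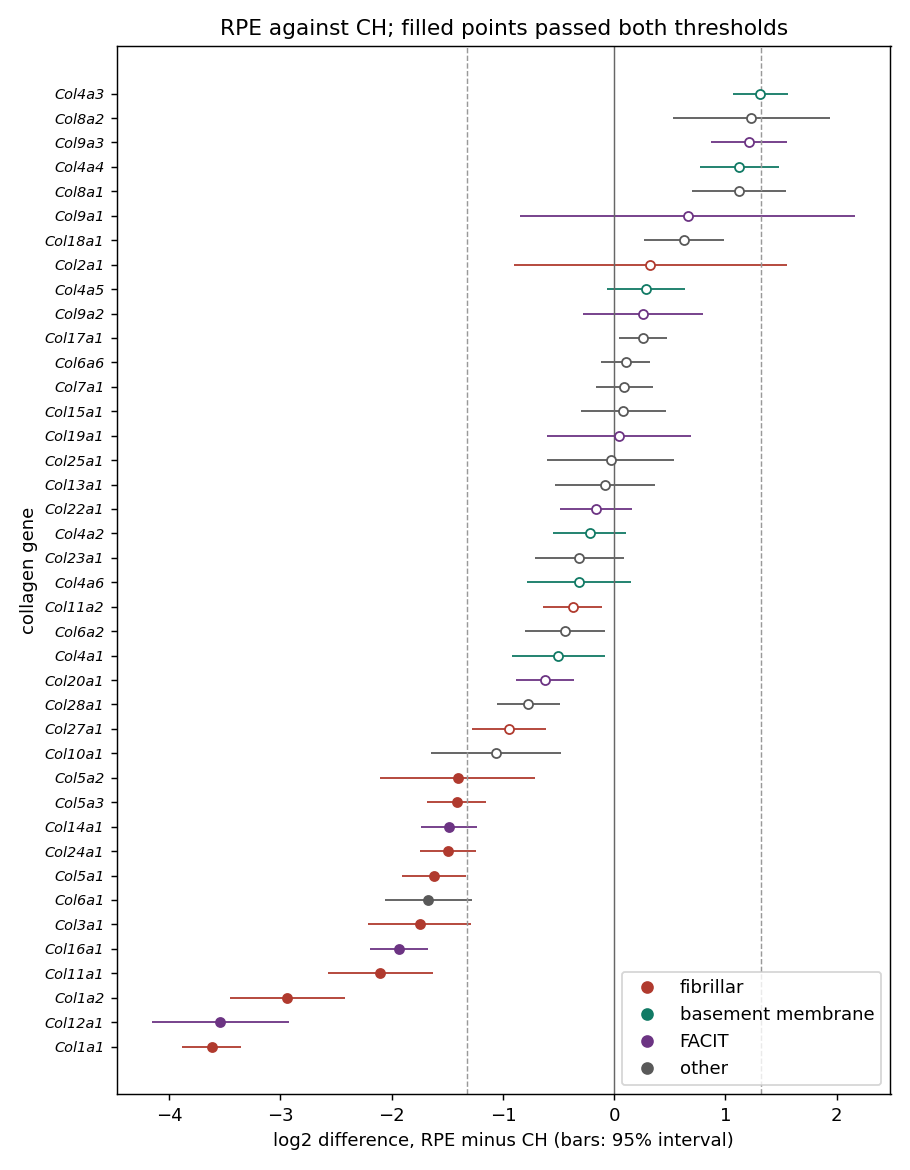
The log2 difference RPE minus CH (horizontal axis) with its 95% interval from limma is plotted for the reported probe of each of the 40 collagen genes (vertical axis), coloured by class. Filled points passed both thresholds, and dashed lines mark a fold change of 2.5. The 12 filled points lie to the left and 8 of them are fibrillar, while Col4a3 ends just inside the right line at 1.31.

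Type IV chains assemble in fixed sets, alpha1 with alpha2 in nearly all basement membranes, alpha3 with alpha4 and alpha5 in specialised ones such as those of kidney and eye, and alpha5 with alpha6. Their genes lie in head-to-head pairs. For Col4a1 and Col4a2 the starts in RefSeq (GRCm38.p6) were 21 bases apart on opposite strands, so that their promoter windows of 300 bases overlapped by 78. The window of Col4a1 (chr8:11312777-11313076, minus strand) is shown because both genes of the pair start in it. Capitals mark the motifs searched on both strands, CCAAT (here as ATTGG) and GGGCGG (here as CCGCCC).
Col4a1: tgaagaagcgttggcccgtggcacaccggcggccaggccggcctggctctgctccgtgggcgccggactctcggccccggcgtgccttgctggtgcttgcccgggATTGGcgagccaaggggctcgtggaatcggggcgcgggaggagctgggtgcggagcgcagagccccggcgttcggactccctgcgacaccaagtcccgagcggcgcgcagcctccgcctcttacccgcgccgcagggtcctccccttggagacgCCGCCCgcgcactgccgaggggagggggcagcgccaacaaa
CCAAT was present in 37.4% of all promoter windows and in 11 of the 32 collagen windows at hand, and GGGCGG in 35.7% and in 19. TATAAA was present in 13.6% and in 5, but not here. The starts of Col4a5 and Col4a6 were 1343 bases apart.

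Col4a1 read 1.01, 1.12 and 0.61 in CH, 0.29, 0.40 and 0.55 in RPE and -1.65, -2.19 and -1.56 in PR. Col4a2 read 0.93, 0.96 and 0.43 in CH, 0.52, 0.62 and 0.52 in RPE and -0.98, -1.24 and -0.99 in PR. In both, CH 3 was the lowest CH array and PR 2 the lowest PR array. RPE minus CH was -0.50 ± 0.19 for Col4a1 and -0.22 ± 0.15 for Col4a2 (adjusted p = 0.0854 and 0.343), while both exceeded PR in RPE, by 4.64-fold and 3.08-fold (adjusted p = 5.1e-06 and 8.56e-06). Endothelial markers, of cells that make this pair, were likewise at similar levels in CH and RPE and low in PR, and their part in the result was not tested.

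The alpha3 and alpha4 chains had another order. Col4a3 read -0.52, -0.66 and -0.39 in CH, 0.78, 0.73 and 0.85 in RPE and 0.39, 0.29 and 0.08 in PR. RPE was highest and CH lowest, with no overlap of any layers, and PR exceeded CH by 1.71-fold (adjusted p = 0.000187). Col4a4 read 0.06, 0.05 and 0.40 in CH, 1.16, 1.34 and 1.39 in RPE and -0.43, -0.97 and -0.84 in PR. RPE was again highest, but here PR was lowest, 4.12-fold under RPE (adjusted p = 2.76e-06). A second Col4a4 probe gave 1.31 ± 0.21 for RPE minus CH and 0.27 ± 0.21 for CH minus PR, so the gap between CH and PR at the brighter probe (0.92 ± 0.16) was not shared. The third Col4a4 probe was well above background on 2 arrays in all.

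Col4a5 read -1.09, -0.94 and -0.48 in CH, -0.58, -0.72 and -0.36 in RPE and -3.46, -3.41 and -3.43 in PR. CH and RPE overlapped, and RPE exceeded PR 7.36-fold (adjusted p = 2.67e-07). The brighter Col4a6 probe read -1.34, -1.41 and -1.07 in CH, -1.41, -2.11 and -1.26 in RPE and -2.99, -3.27 and -2.97 in PR, and passed against PR in RPE (2.8-fold) and in CH (3.48-fold). Both calls were lost with scale normalization (0.46 and 0.85 on the log2 scale), and that of RPE also with Cy5 alone (1.12) and without RPE 3 (1.32). The dimmer Col4a6 probe lay between -0.26 and 0.36 on all arrays and was not called (RPE minus PR 0.10 ± 0.11), so the probes of this gene disagreed.

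**Figure D4:**
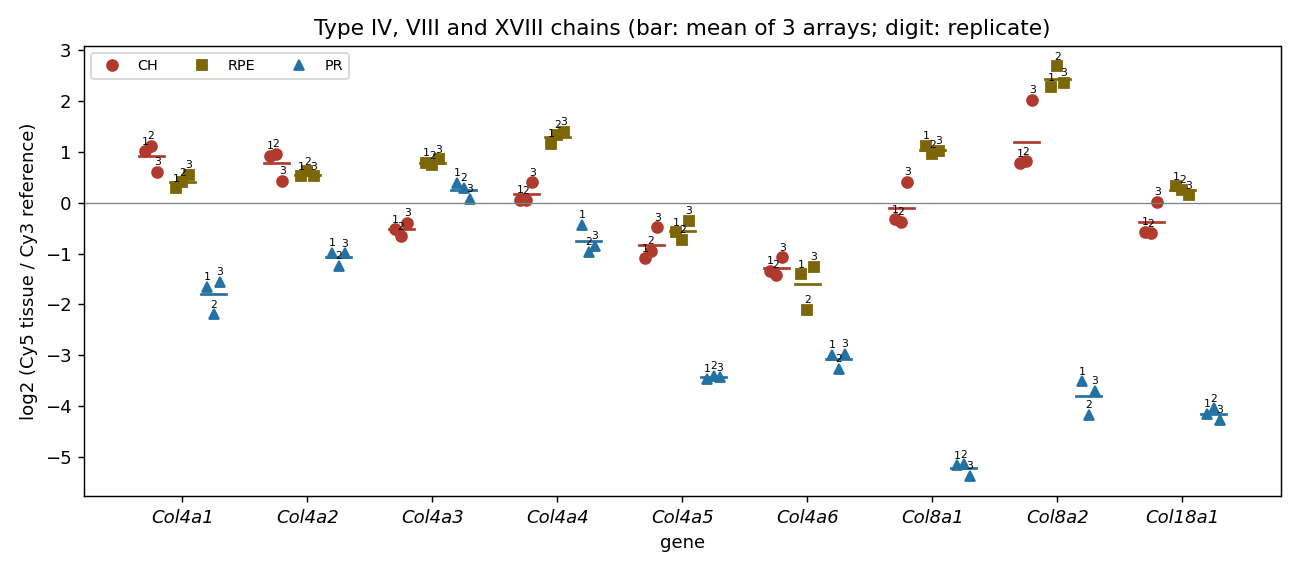
The log2 ratio of tissue over reference (vertical axis) is plotted on each array for 6 type IV chains, both type VIII chains and Col18a1 (horizontal axis). Points are arrays with their replicate number (circles CH, squares RPE, triangles PR) and bars are means of 3. RPE lies above CH for Col4a3, Col4a4, Col8a1, Col8a2 and Col18a1, and PR lies lowest except for Col4a3.

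Type VIII collagen, the short-chain network of Descemet's membrane and vascular walls, was high in RPE and CH against PR. Col8a1 read -0.33, -0.37 and 0.41 in CH, 1.12, 0.95 and 1.02 in RPE and -5.17, -5.14 and -5.37 in PR. RPE was 76.4-fold above PR (log2 difference 6.25 ± 0.19, adjusted p = 1.06e-08) and CH 35-fold (adjusted p = 1.7e-08). Its partner Col8a2 read 0.78, 0.82 and 2.02 in CH, 2.27, 2.68 and 2.36 in RPE and -3.51, -4.16 and -3.70 in PR, with RPE 75-fold above PR (adjusted p = 1.65e-07). With Cy5 alone RPE minus PR was 5.58 for Col8a1 and 4.35 for Col8a2, and both calls held. CH 3 stood above the other CH arrays in both genes, and it was also the CH array with the highest RPE marker median (1.21). A link between these was not tested. A second, dimmer Col8a2 probe gave 2.18 ± 0.19 for RPE minus PR and no call for CH minus PR (1.16 ± 0.19). The promoter windows of the pair (RefSeq, GRCm38.p6) are shown because they were the only 2 of the 32 collagen windows with 4 matches to GGGCGG on either strand, in capitals and partly overlapping in Col8a2. Of all windows 5.49% had 4 or more. They lie at chr16:57754688-57754987 (Col8a1, minus strand) and chr4:126286544-126286843 (Col8a2, plus strand).
Col8a1: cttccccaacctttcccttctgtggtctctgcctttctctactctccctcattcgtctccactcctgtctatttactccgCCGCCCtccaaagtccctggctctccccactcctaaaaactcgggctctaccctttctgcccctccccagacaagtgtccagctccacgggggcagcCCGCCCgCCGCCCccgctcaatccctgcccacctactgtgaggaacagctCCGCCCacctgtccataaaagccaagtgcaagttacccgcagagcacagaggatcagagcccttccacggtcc
Col8a2: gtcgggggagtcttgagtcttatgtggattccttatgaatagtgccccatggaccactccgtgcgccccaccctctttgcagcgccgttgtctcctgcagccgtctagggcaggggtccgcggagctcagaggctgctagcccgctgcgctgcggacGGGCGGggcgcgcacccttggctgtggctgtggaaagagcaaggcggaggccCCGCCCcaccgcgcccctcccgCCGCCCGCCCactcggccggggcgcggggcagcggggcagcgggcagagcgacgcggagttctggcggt

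Col10a1, a short-chain collagen best known from growth plate cartilage, read 2.56, 2.139 and 1.52 in CH, 0.72, 1.46 and 0.86 in RPE and -4.30, -4.42 and -4.56 in PR. RPE was 43.4-fold and CH 90.6-fold above PR (adjusted p = 1.23e-07 and 2.8e-08), with 1 of 3 PR arrays well above background. With Feature Extraction log ratios the differences of Col10a1 were 6.58 and 7.67 on the log2 scale, against 5.44 and 6.50 as reported. CH minus RPE stayed uncalled (RPE minus CH -1.06 ± 0.26, adjusted p = 0.0168). The dimmer Col10a1 probe, well above background on 1 array only, was called in no comparison. It gave 1.08-fold for RPE over PR (adjusted p = 0.566) and 1.46-fold for CH over PR (adjusted p = 0.0108). Col18a1, the precursor of endostatin, read -0.57, -0.60 and 0.02 in CH, 0.33, 0.25 and 0.15 in RPE and -4.15, -4.04 and -4.27 in PR. Its 2 probes gave 21-fold and 20.3-fold for RPE over PR (adjusted p = 2.52e-08 and 1.33e-07). With the reported processing, the 5 largest fold changes of RPE over PR were those of Col8a1, Col8a2, Col10a1, Col1a1 and Col18a1, and of CH over PR those of Col1a1 (348-fold), Col10a1, Col3a1 (51.1-fold), Col8a1 and Col1a2 (34.5-fold). The order changed with the processing: for RPE over PR, Col10a1 stood above Col8a1 and Col8a2 with Feature Extraction log ratios. In slide 2, the only slide that held PR with the other layers, all 21 called reported probes of RPE against PR and all 24 of CH against PR kept their direction, with 1 array a layer. A fold above 2.5 was kept by all 24 and by 20 of the 21, with Col4a6 at 1.16 on the log2 scale. The arrays of slide 2 were part of the fit that called these probes, so this is no separate check.

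Genes higher in PR were few. Col19a1, a FACIT chain, read -0.11, -0.02 and 0.41 in CH, 0.66, -0.58 and 0.33 in RPE and 3.22, 2.93 and 2.72 in PR. PR exceeded RPE 7.04-fold (adjusted p = 2.15e-05) and CH 7.26-fold (adjusted p = 1.6e-05), whereas CH and RPE overlapped. Col7a1, the chain of anchoring fibrils, read -0.34, -0.37 and -0.02 in CH, -0.26, -0.12 and -0.07 in RPE and 1.40, 1.32 and 1.25 in PR, 2.78-fold above RPE (adjusted p = 2.81e-06). Its calls against both layers were lost with scale normalization (-1.17 for RPE minus PR and -1.27 for CH minus PR). Col20a1, also a FACIT chain, passed at 1 of its 2 probes against RPE only. That probe read 0.55, 0.74 and 0.79 in CH, 0.13, -0.05 and -0.04 in RPE and 1.44, 1.15 and 1.49 in PR, 2.54-fold above RPE, and the brighter probe gave 2.13-fold. Here RPE was the lowest layer, and neither probe of Col20a1 showed overlap between layers.

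Some collagens varied more between arrays of a layer than between layers. These were singled out after their values were seen. Col2a1, the fibrillar chain of cartilage and vitreous, read -1.88, -1.52 and -0.17 in CH, 0.31, -1.66 and -1.25 in RPE and -1.35, -0.45 and -0.89 in PR. Col9a1, which decorates type II fibrils, read -3.02, -2.67 and -0.67 in CH, -0.09, -2.32 and -1.95 in RPE and -3.01, -2.40 and -3.01 in PR. At the reported probes of both genes CH 3 and RPE 1 were the highest arrays. The dimmer Col9a1 probe, well above background on 8 arrays, did not share this spread. Its SD was 0.08 in CH and 0.01 in RPE, against 1.27 and 1.20 at the reported probe. Col9a2 read -0.89, -0.997 and -0.37 in CH, 0.03, -0.99 and -0.51 in RPE and -0.68, -0.63 and -0.70 in PR, again highest on RPE 1 and CH 3. Their SEs for RPE minus CH were 0.55, 0.67 and 0.24, and no comparison was called. RPE minus CH was 0.33 for Col2a1 with a 95% interval from -0.90 to 1.55, and 0.66 for Col9a1 from -0.845 to 2.17. RPE 1 also had the highest median of rod markers outside PR (0.23). The median of 5 Muller glia markers was -1.23 on RPE 1, against -1.93 and -2.18 on the other RPE arrays, and -1.40 on CH 3, the lowest in CH (-1.15 and -1.03 on the others). On RPE 1, 4 of the 5 were at their highest in RPE and Glul at its lowest, and on CH 3, 3 of the 5 (Glul, Slc1a3 and Aqp4) were at their highest in CH and Dkk3 and Kcnj10 at their lowest. Of the cartilage markers, Matn1 was well above background on no array and Acan on 2. The part of any of these in the spread was not tested. For Col9a3, the remaining type IX chain, CH 3 was also the highest CH array, but RPE 1 was the lowest RPE array.

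**Figure D5:**
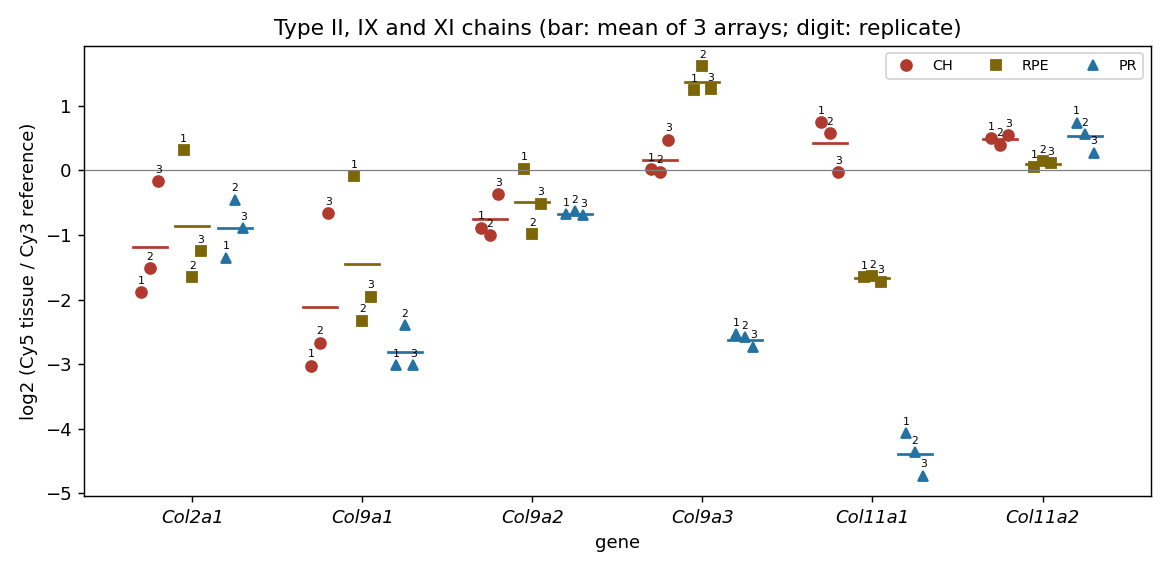
The log2 ratio of tissue over reference (vertical axis) is plotted on each array for the type II, IX and XI chains (horizontal axis). Points are arrays with their replicate number (circles CH, squares RPE, triangles PR) and bars are means of 3. CH 3 and RPE 1 stand above their layers for Col2a1, Col9a1 and Col9a2. For Col9a3 CH 3 is again the highest CH array but RPE 1 is not the highest RPE array, and for Col11a1 CH 3 is the lowest.

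Col17a1, a transmembrane collagen of the junctions that hold epithelial cells to their base, was low against the reference in all layers, by similar amounts. It read -4.02, -3.99 and -4.07 in CH, -3.83, -3.70 and -3.77 in RPE and -3.77, -3.87 and -4.04 in PR. All 9 arrays were well above background for it, and its largest difference was 0.26 ± 0.10 (RPE minus CH, adjusted p = 0.084). Col23a1, another transmembrane chain, passed at its second probe for CH over PR (2.51-fold, adjusted p = 0.000161) and not at the brighter probe (2.05-fold). Col15a1, Col6a6, Col13a1, Col25a1, Col28a1 and Col22a1 had dim probes, well above background on at most 2 arrays for the reported probe of the first 4 and of Col28a1 and on 6 for Col22a1, and gave no call. Of these, Col28a1 was 2.34-fold higher in CH than in PR (adjusted p = 1.92e-05) and Col13a1 1.96-fold (adjusted p = 0.00215), both under the fold threshold. Both were well above background on 1 CH array and on no PR array. This puts CH at least 1.29-fold above PR for Col28a1 and 1.06-fold for Col13a1.

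A list of genes that process or crosslink collagen chains, with 6 genes of collagen receptors, was compared in the same fit. Of 37 genes on the list, all on the array, 6 (Fkbp10, Adamts2, Lox, Ddr2, Itga10 and Itga11) were called higher in CH than in RPE and 1 (Loxl4) higher in RPE, beside the backgrounds of 1.81% and 0.217% given above. Adamts2, which removes the amino-terminal propeptide of fibrillar chains, read 1.41, 1.57 and 1.24 in CH, -0.65, -0.23 and -0.72 in RPE and -3.15, -3.37 and -3.19 in PR (RPE minus CH -1.93). Lox, which oxidises lysines for crosslinks, differed by -1.71, and Fkbp10, a chaperone of the procollagen chain, by -1.43. The collagen receptors Itga11, Ddr2 and Itga10 differed by -1.78, -1.45 and -1.34. Loxl4, another lysyl oxidase, read -0.50, -0.65 and 0.07 in CH, 1.29, 1.13 and 1.10 in RPE and -2.39, -2.49 and -2.36 in PR (RPE minus CH 1.54). Against PR, 18 of 37 were called higher in RPE beside a background of 11.3%, led by Pcolce (log2 difference 4.995), Serpinh1 (4.83) and Loxl1 (4.00, without its outlier spot on CH 2), and all 5 lysyl oxidase genes were among them. For CH over PR there were 21, beside 13.2%, led by Serpinh1 (5.88), Pcolce (5.02) and Adamts2 (4.64). Adamts3 was higher in PR than in RPE (-1.84) and CH (-2.14). Bmp1, counted among the 18 and the 21 through its dimmer probe, had probes that passed in opposite directions between CH and PR. Serpinh1, the chaperone HSP47, read 1.50, 1.83 and 1.48 in CH, 0.63, 0.48 and 0.57 in RPE and -4.25, -4.40 and -4.17 in PR, and its RPE minus CH of -1.05 was under the fold threshold. Of the 4 prolyl 4-hydroxylase genes, P4ha2 was called higher in RPE and in CH than in PR. P4hb, P4ha1 and P4ha3 were called in no comparison. Of the 5 genes of the prolyl 3-hydroxylase complex, Leprel2 and Crtap were likewise called higher in RPE and in CH than in PR, and the others were not called. None of the 3 lysyl hydroxylase genes, Plod1 among them, was called in any comparison.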

How the data were processed

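Amplified RNA of laser dissected CH, RPE and PR (3 arrays each) was hybridised against a common reference on Agilent arrays annotated on mm9. The deposited scanner files, made by the authors with Agilent Feature Extraction 9.5.3.1, hold spot intensity, a log10 ratio of Cy5 over Cy3 and other values such as flags. The authors' series table holds normalized log2 values, made with R 2.14.0 and limma, and was used as an alternative only. Intensities were corrected by normexp (offset 50) and normalized by loess within each array, with control and outlier spots at weight 0. Outlier spots were then left out and spots averaged per probe. The 39429 probes were fitted in limma 3.58.1 (R 4.3.3) over all 9 arrays, with Benjamini-Hochberg adjustment, and called at FC above 2.5 and adjusted p below 0.01. The script was tested on simulated data. Every collagen gene is accounted for. Values on each array are given for genes called between RPE and CH, their partner chains, all type IV chains and the 5 largest fold changes against PR in each direction. The result of 1 marker list is not reported here. The members and lists were chosen with earlier results of these data known. The number of arrays limits the precision, and p-values measure only the spread between these samples. Slide and scan coincided: slide 1 held CH 1, CH 3, RPE 1 and RPE 3, slide 2 held CH 2, RPE 2 and PR 2, and slide 3 held PR 1 and PR 3. Alternatives covered background correction, normalization, channels, blocks, filters, thresholds and the omission of single arrays.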

Additional observations from a re-analysis of the deposited data

How the results depend on the processing

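Of 66 differences followed by gene under 24 alternatives, none reversed. They were the 57 called at the reported probes and 9 uncalled ones of type IV chains. Other uncalled differences were not followed, and large called differences were unlikely to reverse, so this does not cover the whole family. Col8a2 had no value for RPE against PR in the authors' table. Calls were lost for Col5a2 (13 alternatives), Col3a1 (Cy5 alone, authors' table) and Col5a3 (Cy5 alone) between RPE and CH, and against PR for Col1a2, Col4a6 and Col7a1 (scale normalization) and for Col4a6 in RPE (Cy5 alone, without RPE 3). Values moved by over 1.5 times for 29 differences with scale normalization, 7 each with Feature Extraction log ratios, Cy5 alone and the authors' table, and 2 with the slide as a block. Genes higher in CH than in RPE ranged from 9 (Cy5 alone) to 13 (median centring). The number of collagen genes higher in RPE than in CH, 0 as reported, was 1 with Feature Extraction log ratios, 5 with scale normalization, 2 with Cy5 alone, 3 with the authors' table and 5 at a fold change above 2. It ranged from 0 to 4 with 1 array left out (1 without CH 1, 4 without CH 3 and 2 without RPE 2). The backgrounds over all genes were not counted under these alternatives. Class medians moved as follows. With Feature Extraction log ratios they were -0.083 (other, RPE minus CH), 1.567 (type IV) and 0.909 (FACIT) for RPE minus PR, and 4.507 (fibrillar), 1.605 (type IV), 1.5 (other) and 0.29 (FACIT) for CH minus PR. With median centring they were -0.265 (type IV, RPE minus CH), 1.638 (type IV) and 0.907 (FACIT) for RPE minus PR, and 4.561 (fibrillar, CH minus PR). With scale normalization they were 1.104 (fibrillar), 1.643 (type IV), 0.303 (other) and -0.034 (FACIT) for RPE minus PR, and 3.696, 1.233, 0.853 and -0.059 for CH minus PR. With Cy5 alone they were -0.407 (FACIT, RPE minus CH), 1.578 (type IV) and 0.707 (FACIT) for RPE minus PR, and 0.109 (FACIT, CH minus PR). With the authors' table they were -0.41 (FACIT, RPE minus CH), 1.654 (type IV, RPE minus PR), 1.274 (other) and 0.333 (FACIT) for CH minus PR. With the slide as a block they were 2.574 (fibrillar), 2.074 (type IV) and 0.233 (FACIT) for RPE minus PR, and -0.243 (FACIT, CH minus PR). With only probes well above background the other group had 2.504 (RPE minus PR) and 3.768 (CH minus PR), with fewer genes in it. Biosynthesis genes higher in PR than in RPE numbered 2 with Feature Extraction log ratios, with median centring and at a fold change above 2, and those higher in PR than in CH numbered 1 with scale normalization, Cy5 alone, the authors' table and the slide block. At a fold change above 2, 10 were higher in CH than in RPE. The cause of these changes was not tested.

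With 1 array left out in turn, the medians ranged from -0.307, without CH 2, to 0.002, without CH 3 (FACIT, RPE minus CH), from -0.007, without RPE 3, to 0.154, without RPE 2 (type IV, RPE minus CH), from 0 to 0.135 (other, RPE minus CH), from 0.667 to 1.249 (FACIT, RPE minus PR), from 0.861 to 1.169 (other, CH minus PR) and from -0.037, without CH 3, to 1.14, without CH 1 (FACIT, CH minus PR). The biosynthesis genes higher in PR than in RPE ranged from 1 to 2, with 2 without PR 2. With the replicate number as a block (replicate block) the counts were 12 and 0 for RPE against CH, 19 and 3 for RPE against PR and 23 and 2 for CH against PR, and no call changed. Of 9 same-numbered pairs, 4 had deviations that correlated above 0.1 (-0.0763 to 0.2895), and 5 arrays correlated best with their own number, so the numbers were not taken to pair the samples. The reported probes of Col6a6, Col13a1, Col15a1, Col25a1 and Col28a1 were well above background on at most 2 arrays.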

Other observations

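Further marker lists gave the following values, and their part in the collagen differences was not tested. Comp and Chad, matrix proteins listed as cartilage markers, were called higher in CH than in RPE (log2 RPE minus CH -2.81 and -1.52), while Hapln1 and Lect1 of the same list were not (0.10 and 0.38), and array medians of the 6 genes ran from 0.37 to 0.84 in CH, from -0.40 to -0.14 in RPE and from -0.99 to -0.875 in PR. Of 4 melanocyte markers Mlana was called higher in CH (-1.63), with medians of 0.78 to 1.04 in CH, -0.49 to -0.105 in RPE and -3.20 to -2.85 in PR. Of 5 Muller glia markers Dkk3 was called higher in CH (-1.45). None of 4 skeletal muscle markers was called between RPE and CH, and their medians lay between -2.84 and -1.97 in RPE and between -2.53 and -2.36 in CH.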
